A study of Mus musculus with 12 samples.

Results

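The comparison described here sets AML246 leukemia cells after 6 days of doxycycline (Dox) against the same cells after 2 days. It uses the 3 libraries titled as day 2 and the 3 titled as day 6, 6 of the 12 libraries of the series, across all genes. AML246 is a mouse acute myeloid leukemia with a normal karyotype. In all groups the cells were p53-/- and carried a hairpin against PU.1 (shPU.1) linked to GFP, and the cells were sorted as GFP+ from the bone marrow of leukemic C57BL/6 recipients. Dox turns the hairpin off, so both sides of this comparison had been exposed to Dox, and the difference between them is time on Dox and the sort gate. The gate was GFPhigh-mid at day 2 and GFPlow at day 6, so gate and time cannot be told apart. The sources used here do not give the age of the mice. The titles call the replicates technical, whereas the design text speaks of 3 mice a group, so the p-values rest on a between-sample spread that may be technical only.

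PU.1, encoded by Spi1, is an ETS-family transcription factor that myeloid progenitors need to become neutrophils and macrophages. A maturing neutrophil fills its granules in order: primary granules with myeloperoxidase and serine proteases are made first, secondary and tertiary granules with lactoferrin and gelatinase follow, and receptors for chemoattractants come last. Cells on this path normally leave the cell cycle and take down the machinery that makes ribosomes. In bulk RNA, fewer cells of a type and less RNA per cell cannot be told apart, and each level below is an average over the sorted cells.

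The promoters shown here carry motifs that differed in frequency between the groups of genes described below. They were chosen after the values were seen, as 1 or 2 examples of each motif among the named genes. Each run is the sequence before a transcription start of the gene in the RefSeq promoter table (GRCm38.p6 build), 5′ to 3′ on the strand of the gene, without bases that GENCODE places in an exon. Capitals mark the motif. The first pair holds the PU.1 motif GAGGAAG, found here on either strand: Itgam (integrin CD11b, chr7:128062390-128062639, plus strand) and Siglece (an inhibitory sialic acid receptor, chr7:43660162-43660411, minus strand), whose transcripts rose. The Siglece window lies inside the annotated span of the gene (43648882 to 43672044) and directly before the start of a GENCODE transcript.
Itgam: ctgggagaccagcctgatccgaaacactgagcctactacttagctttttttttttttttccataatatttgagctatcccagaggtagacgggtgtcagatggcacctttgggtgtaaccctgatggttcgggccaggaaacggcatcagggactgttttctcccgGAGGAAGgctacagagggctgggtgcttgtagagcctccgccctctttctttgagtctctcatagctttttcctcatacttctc
Siglece: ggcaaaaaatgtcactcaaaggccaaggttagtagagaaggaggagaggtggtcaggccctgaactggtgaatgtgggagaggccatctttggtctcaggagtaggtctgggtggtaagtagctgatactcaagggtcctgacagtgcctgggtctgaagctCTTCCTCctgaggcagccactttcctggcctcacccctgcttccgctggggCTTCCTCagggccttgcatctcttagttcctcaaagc
Ltf (lactoferrin, chr9:111019042-111019270, plus strand), which also rose, holds the C/EBP motif TTGCNNAA on its reverse strand, where it overlaps a CCAAT match.
Ltf: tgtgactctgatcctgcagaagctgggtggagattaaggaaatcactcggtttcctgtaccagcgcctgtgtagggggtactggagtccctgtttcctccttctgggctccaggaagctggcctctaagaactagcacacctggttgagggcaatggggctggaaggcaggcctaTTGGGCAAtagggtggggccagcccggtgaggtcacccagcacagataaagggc
Cdk4 (a G1 cyclin-dependent kinase, chr10:127063285-127063533, plus strand), which fell, holds 4 copies of the MYC E-box CACGTG, a palindrome.
Cdk4: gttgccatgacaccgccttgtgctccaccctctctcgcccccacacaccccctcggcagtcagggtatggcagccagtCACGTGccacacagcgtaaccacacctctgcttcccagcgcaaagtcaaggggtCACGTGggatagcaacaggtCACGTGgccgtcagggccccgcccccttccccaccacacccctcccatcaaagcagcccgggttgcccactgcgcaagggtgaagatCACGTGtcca
Ube2c (the ubiquitin carrier of the mitotic APC/C, chr2:164769679-164769897, plus strand) holds 6 matches to the NF-Y motif CCAAT on both strands, of which 1 pair overlaps.
Ube2c: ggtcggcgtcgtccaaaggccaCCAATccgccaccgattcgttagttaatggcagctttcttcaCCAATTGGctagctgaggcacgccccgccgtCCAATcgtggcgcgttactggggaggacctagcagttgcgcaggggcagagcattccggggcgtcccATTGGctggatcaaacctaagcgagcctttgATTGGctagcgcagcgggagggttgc

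Total counts were 4918920 to 6705112 in the day 2 libraries and 6372953 to 7356166 at day 6, where 3 counts corresponded to 0.393 to 0.640 CPM, the counts scaled to the size of their library with TMM factors. The 10 most abundant genes took 4.84% to 5.02% of the counts at day 2 and 15.6%, 9.63% and 14.2% in day 6 replicates 1, 2 and 3. Day 6 replicate 2 stood apart. Its variance against replicates 1 and 3 was 44.1 and 38.4 times what counting error gives, compared with 4.76 times between replicates 1 and 3 and 2.62 to 6.97 times between day 2 libraries. Transcripts of 10 T cell markers summed to 1.82 to 2.10 CPM at day 2 and to 9.60, 61.9 and 7.42 CPM in day 6 replicates 1, 2 and 3. Lck was at 20.7 CPM and Cd8a at 11.4 CPM in replicate 2 and at 1.17 CPM or less in the other 5 libraries. Pax5 of B cells stayed at 0.390 CPM or less and the globin genes at 1.65 CPM or less. The 9 listed eosinophil markers, taken up below, summed to 11.4 to 194 CPM at day 2 and 110 to 216 CPM at day 6. The part of T cell RNA in the results below was not tested; the T cell genes named here were chosen after their values were seen.

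Spi1 itself rose 4.18-fold between the 2 time points. Spi1 (Entrez 20375, chromosome 2, 91082374 to 91115759 in mm10) was at 107, 98.8 and 123 CPM in the day 2 libraries and at 497, 439 and 438 CPM in the day 6 libraries. The groups did not overlap, and the day 4 mean lay between them at 260.1 ± 14.1 CPM (SD, n = 3). The log2 fold change was 2.06 ± 0.11 (SE; edgeR quasi-likelihood adjusted p = 4.55e-08). A two-sided exact permutation test over the 6 libraries gave p = 0.1, the smallest possible with 3 against 3. Trp53 (Entrez 22059, chromosome 11, 69580348 to 69591873), whose product these cells are labelled as lacking, still gave counts: 43.9, 40.3 and 42.1 CPM at day 2, falling to 16, 14 and 17.2 CPM at day 6. The fall was -1.42 on the log2 scale (SE 0.12, adjusted p = 8.56e-07, exact permutation p = 0.1). Counts over a whole gene do not test which part of it is deleted.

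Most measured genes changed. Of 12057 genes tested with edgeR's quasi-likelihood test, 7470 (62.0%) passed a Benjamini-Hochberg adjusted p of 0.05: 3858 (32.0%) were higher and 3612 (30.0%) lower at day 6. By size, 1680 genes (13.9%) were at least 2-fold higher and 1502 (12.5%) at least 2-fold lower; 394 were at least 8-fold higher and 212 at least 8-fold lower. The libraries of the groups did not overlap for 7876 genes (65.3%). The median log2 fold change over all tested genes was -0.01. These splits depend on the scaling. Relative to the TMM scale used here, library totals shift all log2 fold changes by -0.54 and the upper quartile by -0.24. With library totals 1852 genes were higher and 6999 lower, and with the upper quartile 2768 were higher and 5163 lower. Directions given below for changes under about 1.5-fold are therefore relative to the typical gene. Of the tested genes 2980 (24.7%) had a 95% interval of their change lying wholly within 1.5-fold in either direction.

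**Figure D1:**
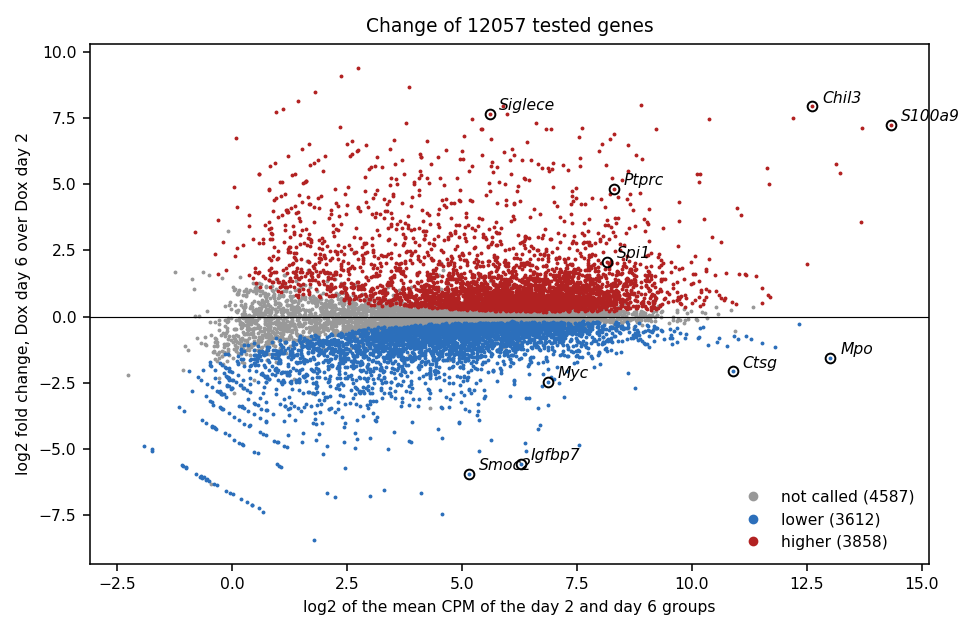
Each point is 1 of 12057 tested genes, with the log2 of the mean CPM of the day 2 and day 6 groups on the x axis and the log2 fold change of day 6 over day 2 on the y axis. Colours separate the 3858 genes called higher, the 3612 called lower and the 4587 not called, and circles mark named genes such as S100a9 at 7.23 and Igfbp7 at -5.58.

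Genes of the later neutrophil granules had the highest median change of the gene lists. Of 26 tested genes for secondary and tertiary granule proteins, 25 rose and 0 fell. Their median log2 fold change was 5.21 against -0.01 over all tested genes. Ltf (chromosome 9, 111019292 to 111042766), which encodes the iron-binding lactoferrin, was at 37.1, 54.7 and 63.3 CPM at day 2 and 12761, 5327 and 10087 CPM at day 6, a 182-fold rise (log2 7.50 ± 0.60, adjusted p = 2.66e-06). Ngp (neutrophilic granule protein) went from 79.0, 141 and 351 CPM to 36468, 13724 and 29293 CPM. Day 6 replicate 2 was the lowest day 6 library for both genes, yet far above every day 2 library. Mmp9, the gelatinase of tertiary granules, rose from 15 ± 4.88 CPM to 2545, 2431 and 2957 CPM. Chil3, a chitinase-like protein, rose from 51.1 ± 17.0 CPM to 12411, 14152 and 11154 CPM, and Lcn2 (lipocalin 2, which binds bacterial siderophores) from 126 ± 42.7 CPM to 7522, 4566 and 6633 CPM. Mmp8, neutrophil collagenase, rose 42.2-fold. For Mmp9, Chil3 and Mmp8 the day 6 libraries lay close together, replicate 2 being slightly the lowest for Mmp9 and Mmp8 and the highest for Chil3.

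The proteins of the neutrophil cytosol and surface followed. Of 37 tested genes of mature neutrophils 33 rose and 2 fell, with a median of 3.68. S100a9 (chromosome 3, 90692630 to 90695721), a subunit of the calcium-binding antimicrobial calprotectin, was at 125, 222 and 470.0 CPM at day 2 and at 51176, 22982 and 48193 CPM at day 6 (log2 7.23 ± 0.71, adjusted p = 1.09e-05). S100a8, its partner subunit, rose from 325 ± 161 CPM to 22779, 11074 and 19410.2 CPM. At day 2, replicate 3 was the highest library for S100a9, S100a8, Ngp, Ltf and Itgam. Ly6g, the surface antigen of mouse neutrophils, rose from 0.304, 0.549 and 1.44 CPM to 69.3, 56.1 and 65.0 CPM. Olfm4 (olfactomedin 4, made by a subset of neutrophils) rose 42.5-fold and Plbd1, a phospholipase B-like protein, from 3.64 ± 1.33 CPM to 1168, 728 and 949 CPM. Asprv1, an aspartic protease, was at 0.655 CPM or less at day 2 and at 61.6, 229 and 64.8 CPM at day 6. The 2 members that fell were Ifitm1 (an interferon-inducible membrane protein, log2 -3.51) and Clec4d (a C-type lectin, log2 -0.84). The stefins Stfa2 and Stfa2l1, cysteine protease inhibitors, rose by 7.14 and 7.08 on the log2 scale, but these near-identical copies can share reads and their values are uncertain.

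Ranked per length, the abundant messages changed places. S100a9 was 59th by RPKM (CPM divided by the gene length in kilobases) at day 2 with 558 RPKM and first at day 6 with 83573 RPKM. Ngp moved from rank 321 to 4, Chil3 from 2556 to 7 and Ltf from 4394 to 13. In the other direction the primary granule genes Elane, Mpo and Ctsg moved from ranks 2, 4 and 6 to 17, 28 and 73. Lyz2 (lysozyme) was already 10th at day 2 with 1946 RPKM and reached 22995 RPKM. Of the 15 genes with the highest RPKM, 4 were among the 15 at both times.

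The primary granule genes split. Of 13 tested, 7 fell, 4 rose and 2 were not called, and the median was -0.65 on the log2 scale. Mpo (chromosome 11, 87793784 to 87804412), which makes hypochlorous acid, was at 11850.2, 12966 and 12299 CPM at day 2 and at 3931, 3918 and 4660.5 CPM at day 6 (log2 -1.57 ± 0.15, adjusted p = 2.86e-06). Elane, neutrophil elastase, fell 2.23-fold and Ctsg, cathepsin G, 4.21-fold, and neither overlapped between the groups. The members that rose the most were Prss57, a serine protease, from 4.62 ± 3.72 CPM to 40.3 ± 6.53 CPM, and Ms4a3, a marker of granulocyte and monocyte progenitors, from 121 ± 60.2 CPM to 489 ± 107 CPM.

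**Figure D2:**
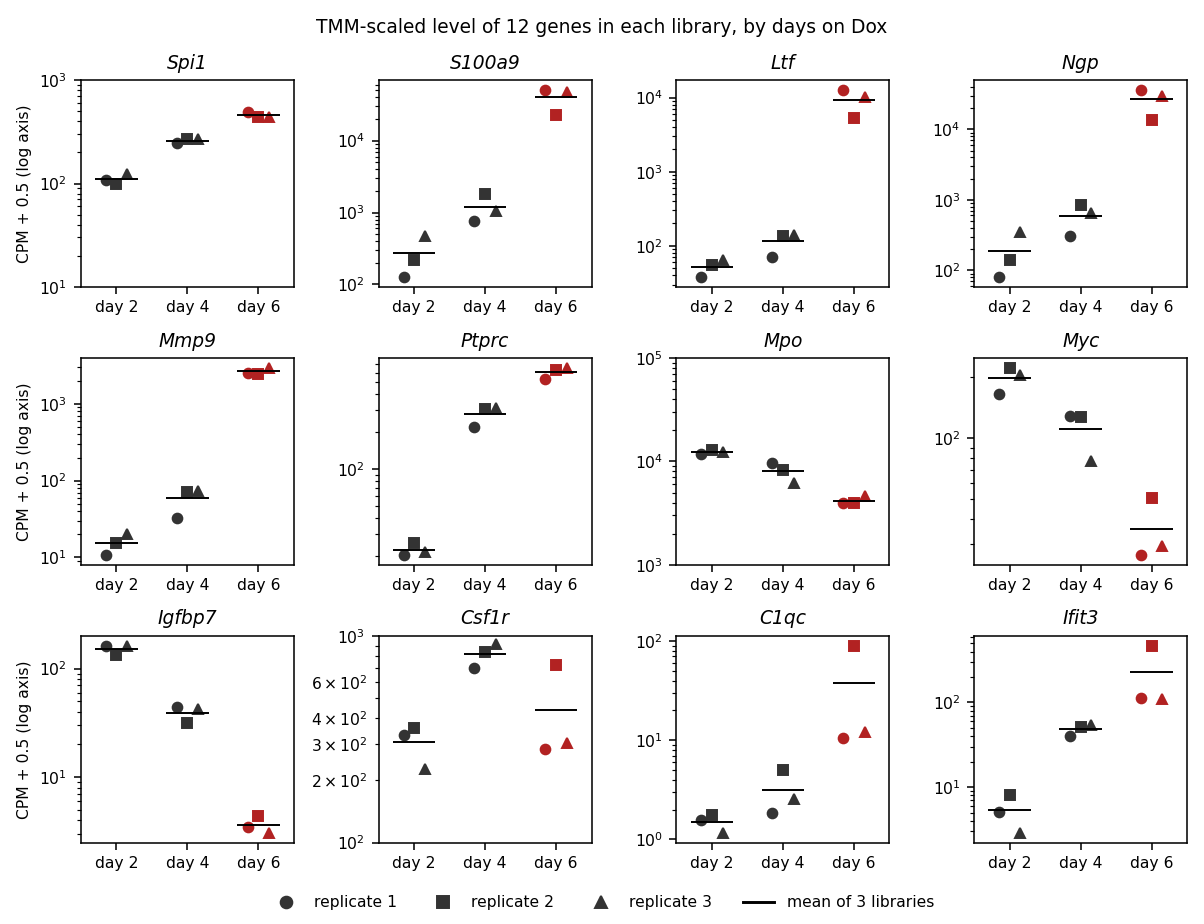
Each panel shows 1 gene, with CPM plus 0.5 on a log axis for the 3 libraries at day 2, day 4 and day 6. Symbols are replicates, bars are means, and day 6 is in red. Ltf, Ngp and S100a9 rise by more than 100-fold, Mpo and Igfbp7 fall, and in Csf1r, C1qc and Ifit3 day 6 replicate 2 lies apart from replicates 1 and 3.

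Monocyte and macrophage genes also rose, and for several of them day 6 replicate 2 held most of the counts. Of 37 tested, 30 rose and 3 fell (median 2.10), and without day 6 replicate 2 the counts were 27 and 4. C1qc (chromosome 4, 136889801 to 136892936), a chain of complement C1q made by macrophages, was at 1.06, 1.28 and 0.655 CPM at day 2 and at 10, 89.7 and 11.5 CPM at day 6. Its log2 fold change of 5.25 became 3.44 without replicate 2. Siglec1, the sialoadhesin of macrophages, was at 28.4, 162 and 31.8 CPM at day 6 against 0.412 ± 0.177 CPM at day 2. Replicate 2 was 4-fold or more above the other day 6 libraries for both genes. Csf1r, the receptor for the macrophage growth factor CSF1, was at 332, 359.5 and 227 CPM at day 2 and at 284, 727 and 303 CPM at day 6. The groups overlapped and the difference was not called (log2 0.52 ± 0.37, adjusted p = 0.239), with a day 4 mean of 817 ± 109 CPM above both. Klf4, a monocyte transcription factor, also had a day 4 mean above both groups (212 ± 30.2 CPM). Klf4 was at 44.0, 42.3 and 29.1 CPM at day 2 and at 48.2, 122 and 51.5 CPM at day 6. Its groups did not overlap, but it was not called (adjusted p = 0.060). It passed without day 6 replicate 1 or 3 (0.0389 and 0.0417) or untreated replicate 2 or 3 (0.0460 and 0.0308). Ly6c2, the antigen of inflammatory monocytes, fell 1.99-fold and the scavenger receptor Cd163 5.82-fold. The summed T cell markers given above were highest in the same library, and their part in these values was not tested.

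Over 37 monocyte and macrophage genes, the median log2 ratio of day 6 replicate 2 to the mean of replicates 1 and 3 was 1.31, and 31 lay above 0. Over 26 secondary and tertiary granule genes the median ratio was -0.63, with 22 below 0. Interferon response genes were higher in replicate 2 (38 of 40, median 0.58), as were all 42 ribosome biogenesis genes (median 0.49), whereas 38 of 40 mitosis genes were lower (median -0.50). A position can be given to replicate 2 between the day 2 mean (0) and the mean of day 6 replicates 1 and 3 (1) on a log2 scale. Over 3643 genes called at 2-fold or more without it, its median position was 0.72, the day 4 mean being at 0.30, and 80.8% of the genes lay below 1. Both the choice of genes and the end point rest on replicates 1 and 3, so a library left out can fall below 1 by construction. Replicates 1 and 3 were not given such a position, so these values have no baseline. In the monocyte and macrophage list its median position was 1.46.

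**Figure D3:**
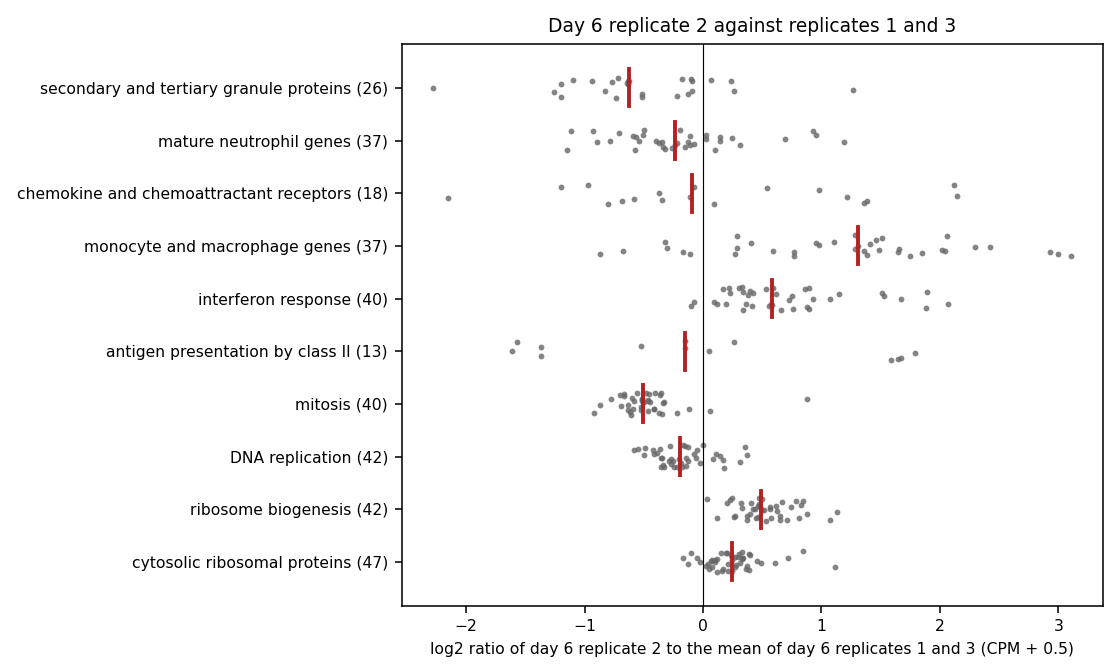
Each point is a tested gene of the list on the y axis, and the x axis is the log2 ratio of its CPM in day 6 replicate 2 to the mean of replicates 1 and 3. Red bars are medians: replicate 2 is higher in monocyte and macrophage genes (1.31) and lower in secondary and tertiary granule genes (-0.63) and mitosis genes (-0.50).

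The receptors with which neutrophils sense bacteria and injured tissue rose together. Of 18 tested chemokine and chemoattractant receptors 16 rose and 1 fell (median 3.19). Fpr2 (chromosome 17, 17887824 to 17893952), a receptor for formylated peptides, went from 1.52, 1.83 and 1.97 CPM to 249, 235 and 246 CPM (log2 7.08 ± 0.26, adjusted p = 4.63e-09), and its relative Fpr1 from 0.590 ± 0.444 CPM to 127, 119 and 130.0 CPM. The day 6 libraries agreed closely for both genes. Cxcr2, the receptor for neutrophil-attracting chemokines, rose 54.8-fold and C5ar1, the receptor for complement C5a, 50-fold. P2ry2, a nucleotide receptor, was the member that fell (log2 -1.20). Of 13 Fc and complement receptors 9 rose and 1 fell, which was Fcgrt, the neonatal Fc receptor. The call of Fcgrt (log2 -1.16, adjusted p = 0.0218) was lost without day 2 replicate 1 or 2 (adjusted p = 0.0505 and 0.0681) and without day 6 replicate 1 or 3 (0.0829 and 0.0781), and also with no filter (0.0569). Fcgr3, a receptor for immunoglobulin G, was not called (555 ± 27.2 and 636 ± 42.9 CPM, log2 0.20, adjusted p = 0.101). It passed as higher without day 6 replicate 2 (adjusted p = 0.0333) and as lower with library totals (log2 -0.35).

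Of 28 Toll-like, NOD and lectin receptors 20 rose and 3 fell (median 1.32). Clec4a2, an inhibitory C-type lectin, rose from 5.48 ± 3.41 CPM to 612, 387 and 560.3 CPM, and Tlr13, which detects bacterial ribosomal RNA, from 3.19 ± 1.23 CPM to 112, 157 and 127 CPM. Nlrp3, the inflammasome sensor, fell 1.70-fold (adjusted p = 0.0184), a call lost without day 2 replicate 2 (0.0539) or day 6 replicate 1 or 3 (0.0545 and 0.0750). Cd14, the coreceptor for lipopolysaccharide, was at 15 ± 3.21 and 31.7 ± 10 CPM and was not called (adjusted p = 0.0633); it passed without any 1 of the untreated libraries, which share the estimate of the spread (adjusted p of 0.0461, 0.0474 and 0.00782), with the replicate block (0.0457), with DESeq2 (0.0196) and with the compared groups alone (0.0135).

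Among growth factor and cytokine receptors 21 of 31 rose and 3 fell on the TMM scale (median 0.62). Without day 6 replicate 2 these counts were 20 and 6. With the upper quartile 16 rose and 4 fell (median 0.37), and with library totals 12 rose and 7 fell (median 0.08). Csf3r, the receptor for the neutrophil growth factor G-CSF, rose 2.62-fold, to 866, 550.2 and 776 CPM. Csf2ra, a chain of the GM-CSF receptor, rose 5.21-fold, to 399.6, 366 and 380.1 CPM. Il1r2, the decoy receptor for interleukin-1, rose 18.5-fold, from 6.39 ± 0.966 CPM to 137, 97.6 and 121 CPM. Il3ra and Ifngr1, chains of the interleukin-3 and interferon gamma receptors, fell 2.05-fold and 2.03-fold.

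Effector and migration genes rose. Of 10 genes of the NADPH oxidase, which makes superoxide in the phagosome, 9 rose and 0 fell (median 1.6). Cybb, its membrane subunit gp91phox, was at 247, 249 and 167 CPM at day 2 and 4170.0, 2635 and 4616 CPM at day 6, and the cytosolic subunit genes Ncf1 and Ncf4 rose 7.02-fold and 6.86-fold. Of 13 genes of eicosanoid synthesis 12 rose, among them Alox5, which starts leukotriene synthesis, at 11.1-fold. Of 28 adhesion molecules 18 rose and 3 fell. Itgam, the alpha chain of the integrin Mac-1, was at 32.5, 46.1 and 82.6 CPM at day 2 and 2630.3, 1432 and 2766 CPM at day 6 (log2 5.40 ± 0.49, adjusted p = 5.94e-06), while Itga1, a collagen-binding integrin chain, fell 4.84-fold. Of 41 genes of actin and motility 40 rose and 0 fell (median 1.20), led by Evl, Vcl, Vasp and Gsn, which bind or shape actin filaments. Actb itself rose 4.01-fold, from 2335 ± 64.8 CPM to 9353 ± 489 CPM, so it was no constant reference here.

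Signalling from immune receptors moved the same way, with 32 of 40 genes higher and 0 lower (median 1.09). Ptprc (chromosome 1, 138062859 to 138175756), which encodes the leukocyte phosphatase CD45, was low at day 2 with 19.6, 24.7 and 20.7 CPM and reached 534, 633 and 658 CPM, a 28.1-fold rise (adjusted p = 1.15e-06). Fgr, a SRC-family kinase of myeloid cells, rose 63.9-fold to 392, 322 and 408 CPM, and Pik3r5, the regulatory subunit of PI3-kinase gamma, from 2.15 ± 0.553 CPM to 129, 129 and 132 CPM. In each of these genes the day 6 libraries lay close together. Of 27 immediate early and MAP kinase feedback genes 15 rose and 3 fell. Nr4a1, an early response nuclear receptor, rose 10.3-fold and Dusp6, a phosphatase of ERK, 4.72-fold, while Dusp2 and Spry1, other brakes on the pathway, fell 5.64-fold and 3.29-fold from 7.37 ± 2.52 and 2.22 ± 0.208 CPM.

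Interferon response genes rose almost without exception: 38 of 40 were higher and 1 was lower (median 2.54). Oas3 (chromosome 5, 120753098 to 120777684), an oligoadenylate synthetase that activates RNase L, was at 35.2, 45.6 and 26.6 CPM at day 2 and at 872, 1066 and 770.4 CPM at day 6 (log2 4.66 ± 0.49, adjusted p = 1.66e-05). Rsad2, the antiviral enzyme viperin, rose from 23.7 ± 9.97 CPM to 456, 824 and 450.0 CPM. Irf7, the transcription factor that amplifies type I interferon, rose from 72.4 ± 26.6 CPM to 589.9, 1062 and 525 CPM. Replicate 2 was the highest day 6 library for all 3 genes, and for Ifit3, an antiviral protein, it held 469.8 CPM against 113 and 110.1 CPM. Without replicate 2, 36 of the 40 still passed as higher. Gbp3, a guanylate-binding protein, was the member that fell (2.25-fold).

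Antigen presentation genes of class II rose from low levels, and those of class I were abundant at both times. Of 13 tested genes on the list for class II presentation 11 rose and 0 fell (median 3.01). That list also holds the costimulatory genes Cd80 and Cd40. Cd74, the invariant chain, was at 2.70 ± 0.297 CPM at day 2 and at 56.3, 28.1 and 90.2 CPM at day 6, and H2-Eb1, a class II beta chain, went from 1.15 ± 0.477 CPM to 16.4, 7.88 and 32.4 CPM. For both genes replicate 2 was the lowest day 6 library. Summed over the class II list it was the highest, at 2118 CPM against 791 and 942 CPM in replicates 1 and 3. That sum follows the most abundant members. Over the 13 tested genes, the median log2 ratio of replicate 2 to the mean of replicates 1 and 3 was -0.15. Of these genes, 6 lay above 0 and 7 below. Of 20 class I genes 11 rose and 1 fell on the TMM scale (median 0.45), but with library totals 2 rose and 4 fell (median -0.09). Their summed level was 10757 to 12312 CPM at day 2 and 14882 to 17067 CPM at day 6. Tapbp, the chaperone tapasin, rose 2.38-fold and Calr (calreticulin) fell 1.57-fold.

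Transcription factors of the myeloid lineage changed in both directions, 22 of 36 being higher and 4 lower (median 1.07). Cebpe, which drives secondary granule genes, was at 46.0, 59.7 and 98.4 CPM at day 2 and at 645, 328 and 589 CPM at day 6 (log2 2.93 ± 0.34, adjusted p = 2.89e-05). Cebpa, the C/EBP factor of early granulocyte progenitors, fell 2.32-fold from 389 ± 16.7 CPM to 167 ± 18.5 CPM, and its groups did not overlap. Cebpb was at 77.2 ± 5.66 and 75.9 ± 16.2 CPM (log2 -0.02 ± 0.21, adjusted p = 0.941; -0.54 with library totals, adjusted p = 0.0496). Irf8, which favours monocytes and dendritic cells, was at 821, 613 and 484.6 CPM at day 2 and at 102, 235 and 99.6 CPM at day 6. Gfi1, a repressor needed for neutrophils, was at 131, 129 and 213 CPM and at 216, 99.3 and 198 CPM, with overlapping groups and no call (adjusted p = 0.748).

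Among 24 tested progenitor factors and stem cell genes 11 fell and 6 rose (median -0.68). Myc (chromosome 15, 61985341 to 61990361), the growth regulator, was at 166, 223 and 206 CPM at day 2 and at 26.0, 50.3 and 28.9 CPM at day 6, a 5.65-fold fall (adjusted p = 1.21e-05). Myb, a factor of proliferating progenitors, fell 1.89-fold and Kit, the stem cell factor receptor, 1.95-fold, with 248, 91.9 and 203 CPM for Kit at day 6. Adgrg1, an adhesion receptor of stem cells, fell 9.37-fold. Among the members that rose was Erg, an ETS factor, from 5.54 ± 3.83 CPM to 76.3, 24.1 and 55.4 CPM.

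The largest falls were in genes that are not part of the usual granulocyte programme. Igfbp7 (chromosome 5, 77349240 to 77408045), a secreted insulin-like growth factor binding protein, went from 162, 132 and 163 CPM to 2.99, 3.86 and 2.54 CPM (log2 -5.58 ± 0.18, adjusted p = 2.46e-09). Cited4, a transcriptional coactivator, fell 34.0-fold from 163 ± 6.36 CPM, and Tns1, the focal adhesion protein tensin, 29.5-fold from 360.3 ± 63.1 CPM. Smoc2, a matrix protein, fell from 70.7 ± 17.8 CPM to 0, 2.73 and 0.195 CPM. Stra6 (a retinol transporter), Cp (ceruloplasmin), Heph (hephaestin, like ceruloplasmin a copper ferroxidase of iron export) and Tmem178 also lay among the 10 largest falls. Pdgfrb, a growth factor receptor of mesenchymal cells, fell 28.3-fold from 160.1 ± 18.0 CPM and the chemokine gene Cxcl12 16.6-fold from 57.8 ± 21.5 CPM. Of 10 markers of stroma and endothelium 4 passed the filter on low counts, and 3 of them (Pdgfrb, Cxcl12 and Pecam1) fell. The remaining 1 had a log2 fold change above 0 and was not called. All the listed markers summed to 284 to 310 CPM at day 2 and 65.9 to 127 CPM at day 6. The defining collagen gene Col3a1 was at 0 in all libraries of days 2 and 6, and Col1a2 and Cdh5 at 0.427 CPM or less. For each of these 10 genes with the largest falls the day 4 mean lay between the day 2 and day 6 means.

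Genes for making ribosomes fell as a group. Of 42 ribosome biogenesis genes 40 fell and 0 rose (median -1.11), and with library totals 42 fell. Gnl3, Ppan and Dkc1, nucleolar proteins, fell 3.93-fold, 4.01-fold and 3.28-fold, and Srm, spermidine synthase, from 209, 197 and 243 CPM to 28.4, 64.9 and 33.0 CPM. Replicate 2 was the highest day 6 library for each. Of 47 cytosolic ribosomal protein genes 42 fell and 0 rose (median -0.85). Rplp1, a stalk protein, was at 754, 723 and 759 CPM at day 2 and at 265, 436 and 308 CPM at day 6. Many of these genes have processed copies in the genome and some gave few counts (Rps23 at 2.87 CPM), so single members are uncertain. Of 32 translation factors 24 fell and 1 rose, with Eef1a1, the elongation factor, down 1.82-fold from 3225 ± 85.9 CPM.

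Genes that supply nucleotides and amino acids fell with them. Of 31 genes of nucleotide and polyamine synthesis 26 fell and 2 rose (median -1.0). Cad, which starts pyrimidine synthesis, fell 3.76-fold, Odc1, ornithine decarboxylase, 3.39-fold and Shmt1, a folate enzyme, 3.65-fold. Phgdh (chromosome 3, 98313171 to 98339969), which starts serine synthesis, went from 171, 166 and 134 CPM to 8.96, 33.6 and 11.3 CPM, and its pathway partner Psat1 fell 2.90-fold. Of the 32 genes of tRNA synthetases and the amino acid response 16 fell and 5 rose (median -0.44). Slc7a11, the cystine carrier, and Chac1, which degrades glutathione, were the members that rose most, by 2.09 and 3.44 on the log2 scale. Of 37 mitochondrial ribosomal protein genes 26 fell and 0 rose, and of 42 genes of oxidative phosphorylation 17 fell and 1 rose. Genes of endoplasmic reticulum chaperones fell in 10 of 28 cases (35.7%), near the 30.0% of all tested genes, and rose in 4, and without day 6 replicate 2 in 19 and 3.

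**Figure D4:**
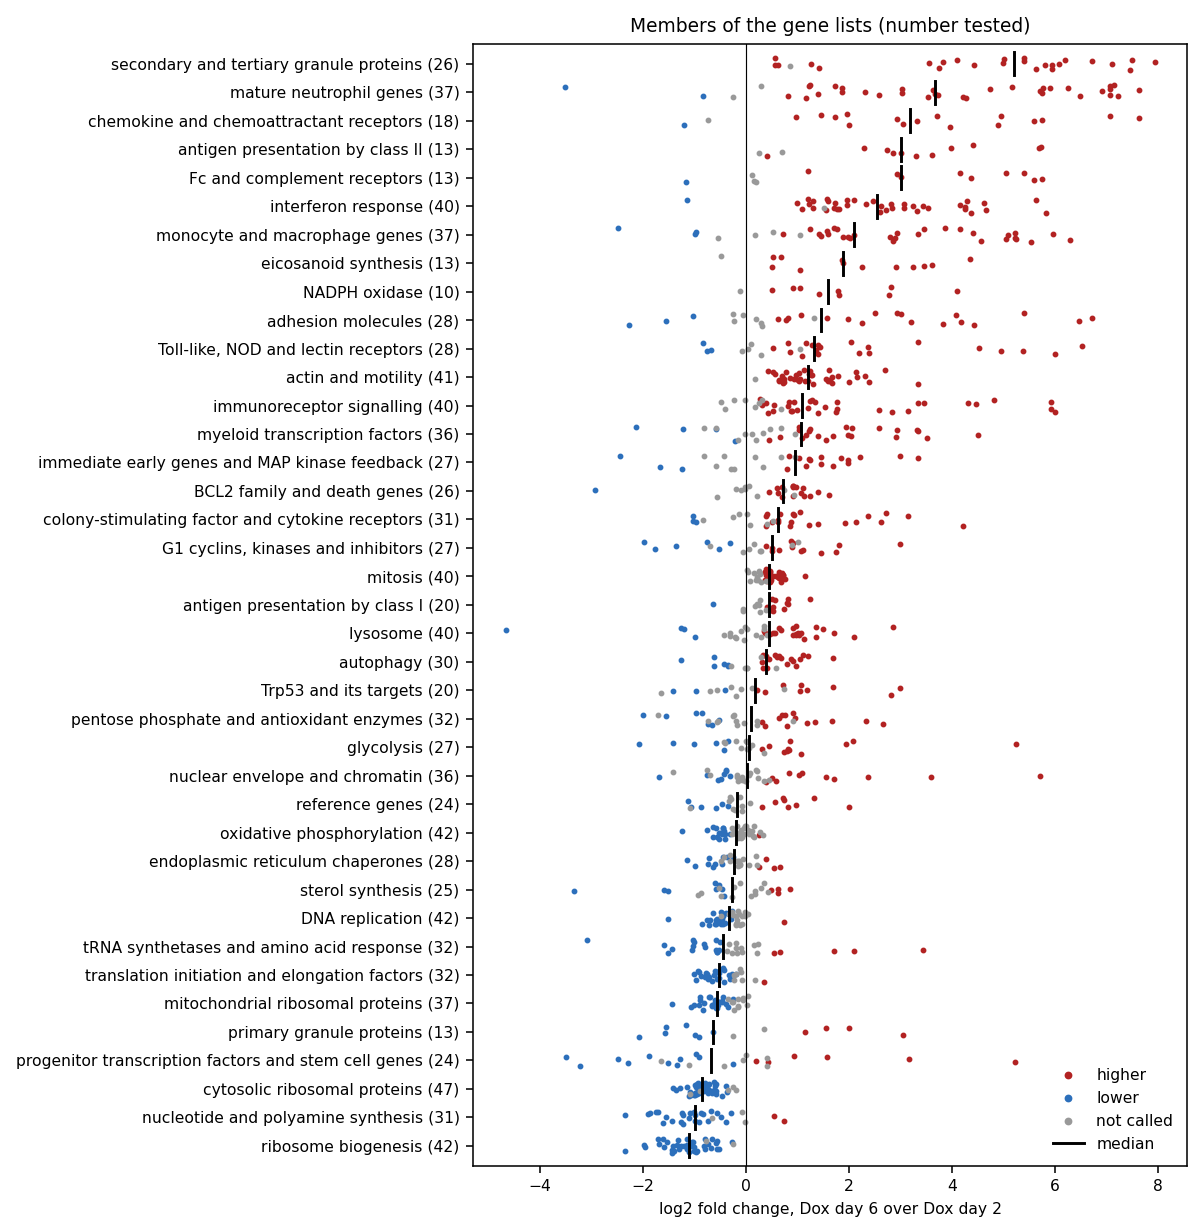
Points are the tested members of each gene list, with the log2 fold change of day 6 over day 2 on the x axis, coloured by call, and black bars are medians. Secondary and tertiary granule proteins stand highest (median 5.21) and ribosome biogenesis lowest (-1.11).

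Cell cycle genes moved in 3 directions. Of 40 mitosis genes 28 rose and 0 fell on the TMM scale (median 0.45), whereas with library totals 1 rose and 10 fell (median -0.10), the median of all genes being then -0.54. Without day 6 replicate 2, 37 rose. Ube2c (chromosome 2, 164769929 to 164772902) was at 86.3, 78.5 and 67.8 CPM at day 2 and at 146, 105 and 134 CPM at day 6, a 1.65-fold rise on the TMM scale (adjusted p = 0.00018) that was not called with library totals (log2 0.18, adjusted p = 0.124). Kif23, a kinesin of cytokinesis, was at 56.7 ± 5.77 CPM and then at 156, 81.0 and 141 CPM. Mki67, the proliferation marker, had 1064, 1029 and 793 CPM and then 1615, 1049 and 1793 CPM, so that its groups overlapped although it was called on the TMM scale (log2 0.63, adjusted p = 0.00829) and not with the upper quartile (log2 0.38, adjusted p = 0.0586) or library totals (0.07, adjusted p = 0.678). Replicate 2 was the lowest day 6 library for all 3 genes. Cdk1, the mitotic kinase, rose 1.31-fold on the TMM scale (adjusted p = 0.0121) but lay lower, without a call, with library totals (log2 -0.16, adjusted p = 0.147). Without day 2 replicate 3 or day 6 replicate 1 it did not pass (adjusted p = 0.0613 in both cases), nor with the upper quartile (0.246) or the compared groups alone (0.0584).

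DNA replication genes went the other way. Of 42 tested, 22 fell and 1 rose (median -0.33), and with library totals 41 fell. Pold2, a subunit of DNA polymerase delta, fell 2.86-fold, from 82.9 ± 4.10 CPM to 26.0, 34.1 and 26.9 CPM, and Rpa2, which binds single-stranded DNA, 1.82-fold. Rrm2, the small subunit of ribonucleotide reductase, was the member that rose on the TMM scale (1.68-fold), without a call with library totals (log2 0.20, adjusted p = 0.146). Of 27 G1 regulators 13 rose (48.1%) and 6 fell (22.2%), against 32.0% and 30.0% of all tested genes (TMM median 0.50, library totals -0.05). With library totals 8 of these regulators rose and 10 fell. Cdk4 (chromosome 10, 127063535 to 127067288) was at 262, 267 and 271 CPM at day 2 and at 68.7, 96.4 and 68.5 CPM at day 6 (log2 -1.77 ± 0.14, adjusted p = 6.02e-07), and its relative Cdk6 fell 3.93-fold. Ccnd3, cyclin D3, rose 3.37-fold, the kinase inhibitor gene Cdkn2d 3.51-fold and Btg2, an antiproliferative gene, from 18.3 ± 2.39 CPM to 147 ± 8.21 CPM.

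Metabolic genes were mixed. Of 27 glycolysis genes 11 rose (40.7%) and 6 fell (22.2%), against 32.0% and 30.0% of all tested genes (TMM median 0.06, library totals -0.49). Slc2a3, the high-affinity glucose transporter GLUT3, rose from 14.1, 13 and 19.8 CPM to 676, 441 and 677 CPM (log2 5.24 ± 0.28, adjusted p = 8.93e-08). Pygl, glycogen phosphorylase, rose 4.22-fold and Hk3, a hexokinase of myeloid cells, 2.09-fold, while the phosphofructokinase gene Pfkm fell 4.27-fold. G6pdx, which supplies NADPH through the pentose phosphate pathway, rose 2.55-fold. Its list of 32 genes with antioxidant enzymes held 13 higher (40.6%) and 7 lower (21.9%), and 14 and 13 without day 6 replicate 2. Of 25 sterol synthesis genes 8 fell (32.0%, near the 30.0% of all tested genes) and 4 rose (16.0%, against 32.0%). Without that library 10 fell and 8 rose.

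Of 40 lysosome genes 22 rose and 4 fell (TMM median 0.44, library totals -0.08), and 21 and 8 without day 6 replicate 2. Ctss, cathepsin S, was at 525, 1733 and 578 CPM at day 6 against 130.1 ± 36.0 CPM at day 2. Of 30 autophagy genes 18 rose and 6 fell (TMM median 0.39, library totals -0.15), among them Wipi1 and Atg9a, up 3.27-fold and 2.30-fold. Of 36 genes for nuclear envelope and chromatin, which include those of the segmented neutrophil nucleus, 11 rose (30.6%) and 8 fell (22.2%), near or below the shares of all tested genes (32.0% and 30.0%). Padi4, which citrullinates histones, went from 4.10, 6.77 and 19.7 CPM to 666, 387 and 601 CPM, and the nuclear envelope genes Syne1 and Sun2 rose 12.1-fold and 3.27-fold.

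Genes that set cell survival turned over. Of 26 members of the BCL2 family and other death genes 16 rose and 1 fell on the TMM scale (median 0.72). With the upper quartile 14 rose and 5 fell, and with library totals 10 rose and 8 fell (median 0.20). The member that fell on the TMM scale was Bcl2 itself, from 57.7, 53.1 and 38.9 CPM to 4.27, 9.16 and 5.66 CPM (log2 -2.93 ± 0.27, adjusted p = 2.79e-06). Mcl1, the survival protein that neutrophils depend on, rose from 344, 411 and 375 CPM to 883, 1133 and 985 CPM. Gsdmd, which forms pores in pyroptosis, rose 2.19-fold. Of 20 genes of the Trp53 list 9 rose and 3 fell, Trp53 itself among the latter, against 32.0% and 30.0% of all tested genes. This split depended on the scaling (TMM median 0.17, upper quartile -0.07, library totals -0.37). With the upper quartile 7 rose and 7 fell, and with library totals 6 rose and 10 fell. Mdm2 rose 2.28-fold and Trp53inp1 7.08-fold.

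Markers of eosinophils and other cells were followed in the same libraries. Ear2, an eosinophil-associated ribonuclease, rose from 1.90 ± 1.25 CPM to 108, 72.7 and 114 CPM, and Siglecf from 1.86 ± 0.507 CPM to 21.8, 6.27 and 16.0 CPM, but Epx and Prg2, the defining granule genes, were not called. Epx was at 1.67, 19.95 and 87.2 CPM at day 2 against 3.84, 2.73 and 3.51 CPM at day 6, and passed as lower without day 2 replicate 1 (adjusted p = 0.0133), untreated replicate 1 (0.0492) or day 4 replicate 1 or 2 (0.0278 and 0.0413). It also passed as lower with the replicate block (0.0288), DESeq2 (0.00765), the upper quartile (0.0363), library totals (0.0227), a 5 CPM filter (0.0446) and the compared groups alone (0.0385). Gzma, granzyme A of killer cells, was at 15.8, 0.804 and 23.4 CPM at day 6, low in replicate 2, against 1.79 ± 1.29 CPM at day 2 (adjusted p = 0.0354). This call was lost without any 1 of the day 2 libraries (adjusted p of 0.0745, 0.0955 and 0.0523) or without day 6 replicate 1 or 3 (0.0828 and 0.136). It was also lost with the replicate block (0.0553), limma voom (0.323), no filter (0.0811), library totals (0.0685) and the compared groups alone (0.0519).

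**Figure D5:**
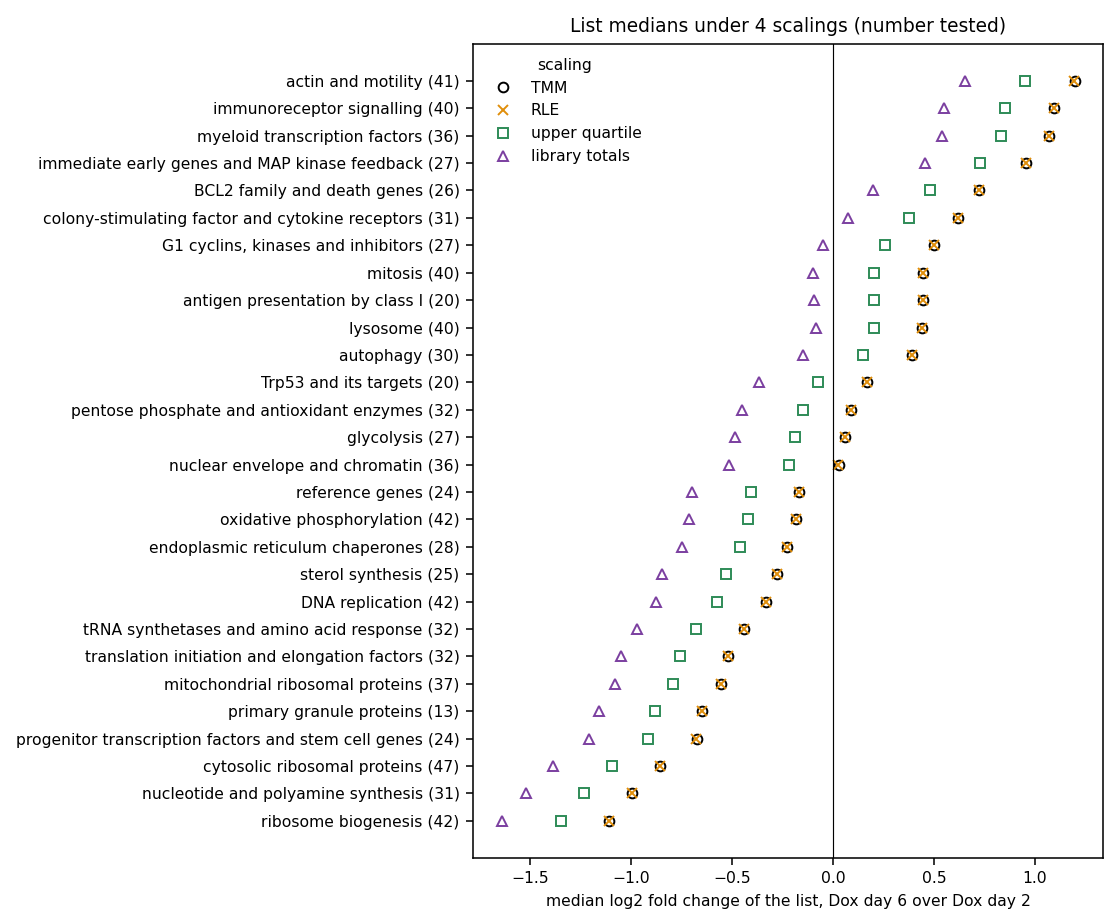
The x axis gives the median log2 fold change of day 6 over day 2 for each list under the TMM, RLE, upper-quartile and library-total scalings. TMM and RLE coincide, library totals shift every list down by about 0.54, and the medians of 9 plotted lists change sign with them: mitosis, class I, lysosome, G1, autophagy, Trp53, pentose phosphate, glycolysis and nuclear envelope.

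The day 4 libraries place these changes in time. Among the 7470 called genes, the step from day 2 to day 4 and the step from day 4 to day 6 differed by an edgeR quasi-likelihood test in 1282 (17.2%), 378 (5.06%) with more of the change before day 4 and 904 (12.1%) with more after it. Fpr2 stayed at 1.77 ± 0.229 and 2.22 ± 1.07 CPM on days 2 and 4, and reached 243 ± 7.37 CPM on day 6. Inhba, an activin subunit, and Cldn1, a tight junction protein, had the same late course, at 2.46 ± 1.12 and 1.47 ± 1.13 CPM at day 4 and 107 ± 30.8 and 86.1 ± 14.7 CPM at day 6. Of the secondary and tertiary granule genes 10 of 26 had more of their change after day 4 and 1 before. Ptpro, a receptor phosphatase, and Hpgd, which degrades prostaglandins, were highest at day 4, at 108 ± 18.2 and 89.2 ± 21.2 CPM, and stood at 53.8 ± 26.4 and 70.6 ± 32.1 CPM at day 6. Monocyte and macrophage genes had more of their change before day 4 in 19 of 37 cases and after it in 2. The counts rest on single libraries: the later class held 2516 genes without day 6 replicate 2, 567 and 573 without day 6 replicate 1 or 3, 582 without day 2 replicate 3, and 398, 538 and 354 without day 4 replicate 1, 2 or 3. The earlier class held 228 and 196 genes without day 4 replicate 2 or 3.

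Some genes that rose strongly lay side by side. Stretches of at least 4 neighbouring tested genes, each called and at least 4-fold higher, numbered 16 and held 82 of the 707 genes of that size, while 1 stretch held 4 of the 519 genes at least 4-fold lower. These stretches and their genes were named after the values were seen. The longest was the stefin cluster on chromosome 16 (36156811 to 36666158), with 10 genes (the stefins and their neighbour Cd86) whose summed level went from 156 to 4064 CPM. The Trem receptor cluster on chromosome 17 (48099816 to 48326511) held 7, and the Ms4a, Ifit, Oas and Pira/Pirb clusters held 6 each. S100a6, S100a8, S100a9 and Pglyrp4 on chromosome 3 (90612894 to 90741517) summed to 667 and 59115 CPM. Members of these families are alike in sequence and can share reads.

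Motifs in promoter windows of 300 bases (250 before and 50 after the RefSeq start) were counted for 9399 of the 12057 tested genes. Windows numbered 366 for genes at least 8-fold higher, 33 for monocyte and macrophage genes and 23 for secondary and tertiary granule genes. Ribosome biogenesis genes had 41 and mitosis genes 36, so the shares in these lists rest on few windows. The PU.1 motif stood in 13.8% of windows of tested genes, 24.6% of those of genes at least 8-fold higher, and 36.4% of those of monocyte and macrophage genes, against 13.6% of all windows in the table. The C/EBP motif stood in 8.68% of windows of tested genes, 17.8% of those at least 8-fold higher and 30.4% of those of secondary and tertiary granule genes (all windows 10.8%). The MYC E-box stood in 21.95% of windows of ribosome biogenesis genes against 10.1% of tested genes and 7.15% of all windows. NF-Y stood in 77.8% of windows of mitosis genes against 38.2% of tested genes and 37.4% of all windows. The E2F motif TTCCCGC stood in 2.46% of windows of genes at least 8-fold higher against 8.19% of tested genes and 4.60% of all. TTGCNNAA and CCAAT can share bases, a gene may have more than 1 window, and a match is a description of the letters only.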

How the data were processed

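RNA from sorted GFP+ marrow cells was sequenced on Illumina instruments, 3 libraries a group. The authors deposited raw whole-number read counts per Entrez gene with the gene length, 1 file a library, per the file headers. The submitters' processing notes list, without roles, the mm10 build, featureCounts, limma 3.22.0, edgeR 3.8.2 and CASAVA 1.8.2. Which aligner and which strand setting were used is not given in the sources used here. Of 27179 genes, RefSeq (GRCm38.p6) named 25275 and GENCODE 17; the 1887 others were kept under their Entrez number.

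Counts were fitted with edgeR 4.0.16 in R 4.3.3 (filterByExpr, TMM, robust quasi-likelihood) on all 12 libraries, so that the groups share 1 estimate of the spread (8 residual degrees of freedom; biological coefficient of variation 14.3%). The contrast was day 6 minus day 2, and a second contrast compared the step before with the step after day 4. Adjusted p-values are edgeR's with Benjamini-Hochberg adjustment over 12057 tested genes, called under 0.05. CPM are counts scaled to library size with TMM factors, mean ± SD over 3 libraries; floors cover counting error only, and intervals of fold changes come from the edgeR fit and include the spread between libraries. In counts simulated for this comparison over 11768 genes, 50% of genes planted at 1.5-fold, 80% at 2-fold and 98% at 4-fold and at 8-fold were recovered, with 10 unplanted genes called. The simulated libraries all had day 2 proportions, and only 50 genes per size, none of low count, changed at day 6. They held no change of most genes and no library that stood apart, so these rates need not hold for the real libraries.

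The members and gene lists were chosen with earlier results of these data known. Named by rule were Spi1, Trp53 and a fixed set of 30 genes; the 10 largest rises and falls among called genes with at least 50 CPM and no overlap; the 8 largest gains and losses of CPM; from each list the called genes of largest change, up to 4 along the direction of most calls and up to 2 against it; and 5 genes for each step class. Alternatives were other scalings, filters, DESeq2 1.42.0, limma 3.58.1 voom, a fold threshold, a replicate block, only the groups compared and leaving out each library. Some genes that this rule names are not reported here.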

Additional observations from a re-analysis of the deposited data

How the results depend on the processing

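With library totals in place of TMM, 1852 genes were higher and 6999 lower at day 6, 972 and 3279 of them by at least 2-fold; Cdk1 turned to -0.16 and Fcgr3 to -0.35 on the log2 scale. The upper quartile gave 2768 higher and 5163 lower. A test against 1.5-fold (edgeR glmTreat) called 1952 higher and 1581 lower, fewer by construction. Leaving out 1 library at a time gave 3565 to 4175 genes higher and 3242 to 3957 lower, 1624 to 1849 and 1358 to 1855 by at least 2-fold, and 1.99 to 2.15 for Spi1. Genes with more of the change before day 4 ranged from 196 to 511, and after day 4 from 354 (without day 4 replicate 3) to 2516 (without day 6 replicate 2); the cause was not tested. With the replicate number as a block 3805 genes were higher and 3555 lower, and correlations between same-numbered day 2 and day 6 libraries were -0.15 to 0.12, so the numbers were not taken as pairs. RLE scaling, DESeq2, limma voom, no filter, a 5 CPM filter and the compared groups alone kept these counts within 1.5 times and Spi1 called higher. Depth limits small changes in genes of few counts, since 3 counts were 0.393 to 0.640 CPM.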
